A study of Mus musculus with 20 samples.

Results

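The comparison described here is intermittent hypoxia against intermittent room air in the subcutaneous adipose tissue of mice whose arrays carry the word Glucose in their titles. It rests on 4 of the 20 arrays of the series, chosen by title alone: 2 arrays titled GlucoseHyp and 2 titled GlucoseNonHyp, lettered a and b within each group. For the hypoxia arrays the labels describe mice aged 12 weeks, named as C57BL-6J and C57BL-6J-Lep with Lep explained as an obesity gene, whose air went down from 20.9% to 5% oxygen over 30 s and back over another 30 s, for 16 h a day during 5 days. For the room-air arrays they give the same age and strains, with intermittent room air on the same daily schedule, although their text names both exposures and the word NonHyp in the title is what sets them apart. On the room-air array lettered b the second strain is written C57BL-6J-LepOb. Which strain, or which mixture of the 2, each array held is not stated, and neither is the meaning of Glucose, nor of Con on the 4 other adipose arrays, which share no array with this comparison. The titles also carry s4 on both arrays lettered a and s2 on both lettered b, with no explanation. No label says that the 2 arrays of a group came from separate animals, so a p-value measures only the spread between arrays, which may be technical. The other 12 arrays of the series held brain, heart, lung and skeletal muscle and enter no comparison. Their values count only in setting the floor, which was taken over all 20 arrays.

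Intermittent hypoxia, in which oxygen falls and recovers in short cycles, is a laboratory model of the breathing pauses of sleep apnea. In white fat, adipocytes take up glucose and fatty acids, build triglycerides when insulin is high and release fatty acids when it is low. Low oxygen stabilises the transcription factor Hif1a, whose known targets include glycolytic enzymes, the glucose transporter Slc2a1 and the angiogenic factor Vegfa, while the factor Srebf1 drives the genes of fatty acid synthesis.

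The deposited values are intensities on a linear scale, and they are given below as log2 levels after values under 97.7 were set to 97.7, a log2 level of 6.61 that is called the floor. The 4 arrays had similar intensities: the medians were 289 and 273 on the hypoxia arrays a and b, against 291 and 265 on the room-air arrays a and b. Values at or below 0 made up 20.3% and 18.5% of the hypoxia arrays and 20.3% and 19.9% of the room-air arrays. The Actb controls of the 3' end divided by those of the 5' end, a measure of RNA integrity, gave 0.810 and 0.775 on the hypoxia arrays, against 0.756 and 1.27 on the room-air arrays. The tissue carried adipocyte markers, with log2 levels of Adipoq, the hormone adiponectin, between 13.70 and 14.99 on all 4 arrays. It also carried skeletal muscle RNA in unequal amounts: the summed intensity of 30 muscle fibre genes was 108197 and 232775 on the hypoxia arrays, against 24657 and 254414 on the room-air arrays. The room-air array a was thus the poorest in muscle RNA and the room-air array b the richest. In pieces of tissue, fewer cells of a type and less RNA per cell cannot be told apart.

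No probe set passed the test for hypoxia against room air within Glucose. In limma 0 of 7453 probe sets (0%) reached an adjusted p of 0.05, the smallest adjusted p was 0.999, and 159 had an unadjusted p under 0.05, 84 of them higher with hypoxia, where chance gives 373. Of the 536 genes of the lists below that were tested, 23 had an unadjusted p under 0.05. Each difference is therefore given as a size, with the standard error of the fit behind the ± sign, and not as a call. With 2 arrays a side, differences of 2 log2 units were recovered for 28% of 200 simulated probe sets and differences of 3 log2 units for 74.5%, and differences of 1 log2 unit for 0%. An exact permutation test of 2 arrays against 2 has 6 regroupings and cannot give a two-sided p below 0.333.

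The differences were of the size of the spread between replicates. Across the 7453 probe sets, log2 levels correlated at r = 0.896 between the hypoxia arrays a and b and at 0.843 between the room-air arrays a and b. Arrays of the same letter were closer to each other than arrays of the same group: r was 0.923 between hypoxia a and room air a, and 0.916 between hypoxia b and room air b. The SD of the log2 difference over probe sets was 0.64 for hypoxia a minus room air a and 0.70 for hypoxia b minus room air b, against 0.76 between the 2 hypoxia arrays and 0.95 between the 2 room-air arrays. The replicates of either group thus lay further apart than the same-lettered arrays of the 2 groups. On the Glucose arrays the letter goes with the s number of the title, so the 2 cannot be told apart there.

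The difference seen in one pair of arrays said little about that in the other. The log2 difference of hypoxia minus room air in the arrays lettered a correlated with that in the arrays lettered b at r = 0.03 over probe sets, which are not independent replicates, and 3655 of 7227 probe sets with a difference in both pairs (50.6%) had the same sign in both. No label ties the arrays of a letter to each other, and with the arrays paired across letters r was -0.38. The values of each pair, here and below, depend on the choice to pair by letter. In the pair a, 313 probe sets were 2-fold or more higher with hypoxia and 355 lower. In the pair b, 452 were higher and 388 lower. Both pairs held 42 of the higher and 52 of the lower, and 72 probe sets were 2-fold or more apart in both pairs with opposite signs.

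**Figure D1:**
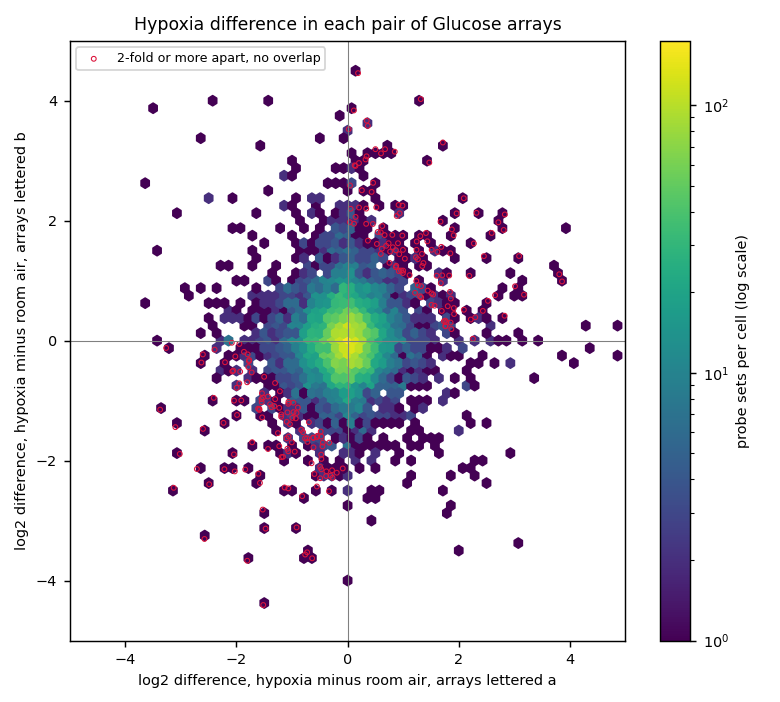
Log2 difference of hypoxia minus room air in the Glucose arrays lettered a (horizontal axis) and b (vertical axis) for 7453 probe sets, shown as counts per hexagonal cell on a log colour scale, with red circles for the 255 probe sets 2-fold or more apart in the mean with no overlap between the groups. The cloud is round (r = 0.03) with no tilt along the diagonal.

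Averaged over the arrays, 131 probe sets were 2-fold or more higher with hypoxia with no overlap between the groups (1.76% of those tested), and 124 were lower (1.66%). Whatever the size, 898 probe sets (12%) were higher with no overlap and 925 (12.4%) were lower. The 131 hold 114 probe sets with 1 gene symbol and the 124 hold 114. Of the 131, 9 had both room-air arrays at the floor and 51 had 1 of them there. Of the 124, 19 had both hypoxia arrays at the floor and 38 had 1. Such differences are lower bounds in size. The counts were 315 higher and 323 lower without the hypoxia array a, 290 and 311 without the hypoxia array b, 495 and 352 without the room-air array a, and 290 and 345 without the room-air array b. A group of 1 array overlaps less easily, so these counts are not comparable with those of 2 arrays.

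Among the genes with the widest gap on the higher side, Hoxc6, a homeobox factor that patterns the body axis, stood well clear of the floor on every array. Its log2 levels were 10.87 and 10.73 on the hypoxia arrays a and b, against 9.44 and 9.08 on the room-air arrays (difference 1.55 ± 0.34, 2.92-fold). The gap between the lower hypoxia array and the higher room-air array was 1.29, wider than the distance between the arrays of either group. Bysl, a factor of small ribosomal subunit assembly, had 10.12 and 10.13 on the hypoxia arrays, against 8.29 and 9.04 on the room-air arrays (1.46 ± 0.41). Pklr, the pyruvate kinase of liver and red cells, had 9.20 and 9.20 on the hypoxia arrays, against 6.61 and 7.40 on the room-air arrays (2.19 ± 0.56, a lower bound). Apom, the apolipoprotein that carries sphingosine 1-phosphate, had 8.73 and 8.81 on the hypoxia arrays, against 6.82 and 7.05 on the room-air arrays (1.83 ± 0.67). Cdan1, mutated in a congenital anaemia of humans, differed by 1.53 ± 0.39. The groups of these genes did not overlap, by the rule that chose them.

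Some genes were at the floor on both room-air arrays. Tal2, a basic helix-loop-helix factor, had log2 levels of 8.70 and 8.98 on the hypoxia arrays and was at least 4.70-fold higher there. Adgre5, an adhesion receptor of leukocytes also called CD97, had 8.02 and 8.40 on the hypoxia arrays and was at least 3.03-fold higher. Timeless, a protein of replication forks, differed by at least 3.89-fold, with 9.62 and 7.52 on the hypoxia arrays, and the surfactant protein gene Sftpc by at least 2.54-fold, with 8.91 and 7.0. The hypoxia arrays of Tal2 and Adgre5 lay close together, and those of Timeless and Sftpc lay far apart.

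Other genes of the higher side varied more within a group. Clgn, a chaperone of the testis, had 9.70 and 10.09 on the hypoxia arrays, against 6.61 and 8.68 on the room-air arrays (2.25 ± 0.67, a lower bound), and its other probe set differed by 0.69. Folr1, a folate receptor, differed by 1.62 ± 0.38 and Tlcd4 by 1.39 ± 0.51, each with 1 room-air array at the floor. Sprr2i, a protein of the cornified envelope of epithelia, had 10.47 and 9.28 on the hypoxia arrays, against 6.61 and 8.29 on the room-air arrays (2.42 ± 0.61, a lower bound). Sprr2i and the lens crystallin Cryge (1.65 ± 0.54) rest on probe sets that may pick up other members of their families. Mrps18a, a mitochondrial ribosomal protein, differed by 1.32 ± 0.43 on its brightest probe set and by at most 0.17 on the others, so its probe sets disagree.

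On the lower side most of the widest gaps belonged to genes at the floor on both hypoxia arrays. Gata2, which acts in precursors of blood cells and adipocytes, had log2 levels of 8.64 and 8.79 on the room-air arrays and was at least 4.30-fold lower with hypoxia (-2.11 ± 0.35, unadjusted p = 0.00041 in limma, adjusted p = 0.999). Cbr2, a carbonyl reductase, had 8.66 and 8.51 on the room-air arrays and was at least 3.92-fold lower (-1.97 ± 0.34). Myo7a, an unconventional myosin, had 9.74 and 9.06 there and was at least 6.93-fold lower (-2.79 ± 0.51). The size of each bound depends on where the floor is set: for Gata2 the difference was -2.82 with a floor at the percentile 10 of positive values and -0.54 with one at the percentile 40.

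Grk6, a kinase that switches off G protein-coupled receptors, had 9.19 and 9.92 on the room-air arrays and was at least 7.68-fold lower with hypoxia. Tmem62 was at least 5.44-fold lower, the sialyltransferase St3gal3 at least 4.53-fold, the exchange factor Trio at least 3.26-fold and the glutathione transferase Gstt2 at least 3.93-fold. Ucp1, the uncoupling protein of brown fat, had 8.04 and 8.42 on the room-air arrays and was at least 3.07-fold lower, with a standard error of 2.46 log2 units. All 6 of these genes were at the floor on both hypoxia arrays, and the Con arrays, which share in the estimate of the spread, held very unequal amounts of brown fat RNA. The summed intensity of 6 brown adipocyte genes was 2727 and 5200 on the Glucose hypoxia arrays and 2340 and 4099 on the Glucose room-air arrays, against 95214 and 4361 with hypoxia and 69300 and 11674 with room air on the Con arrays.

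A few genes of the lower side were measured above the floor in both groups. Ubtf, which drives transcription of ribosomal RNA genes, had 8.15 and 7.40 on the hypoxia arrays, against 9.76 and 9.62 on the room-air arrays (-1.91 ± 0.66). Pla2g4a, the phospholipase that frees arachidonic acid, had 6.99 and 6.74 on the hypoxia arrays, against 8.24 and 8.28 on the room-air arrays (-1.40 ± 0.32). Babam1, a subunit of a DNA repair complex, had 6.68 and 7.06 on the hypoxia arrays, against 8.67 and 8.30 on the room-air arrays (-1.61 ± 0.39). Gdf9, a growth factor of oocytes, differed by -2.30 ± 1.18. The groups of all 4 genes lay apart, and only Gdf9 had an array at the floor, the hypoxia array b.

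**Figure D2:**
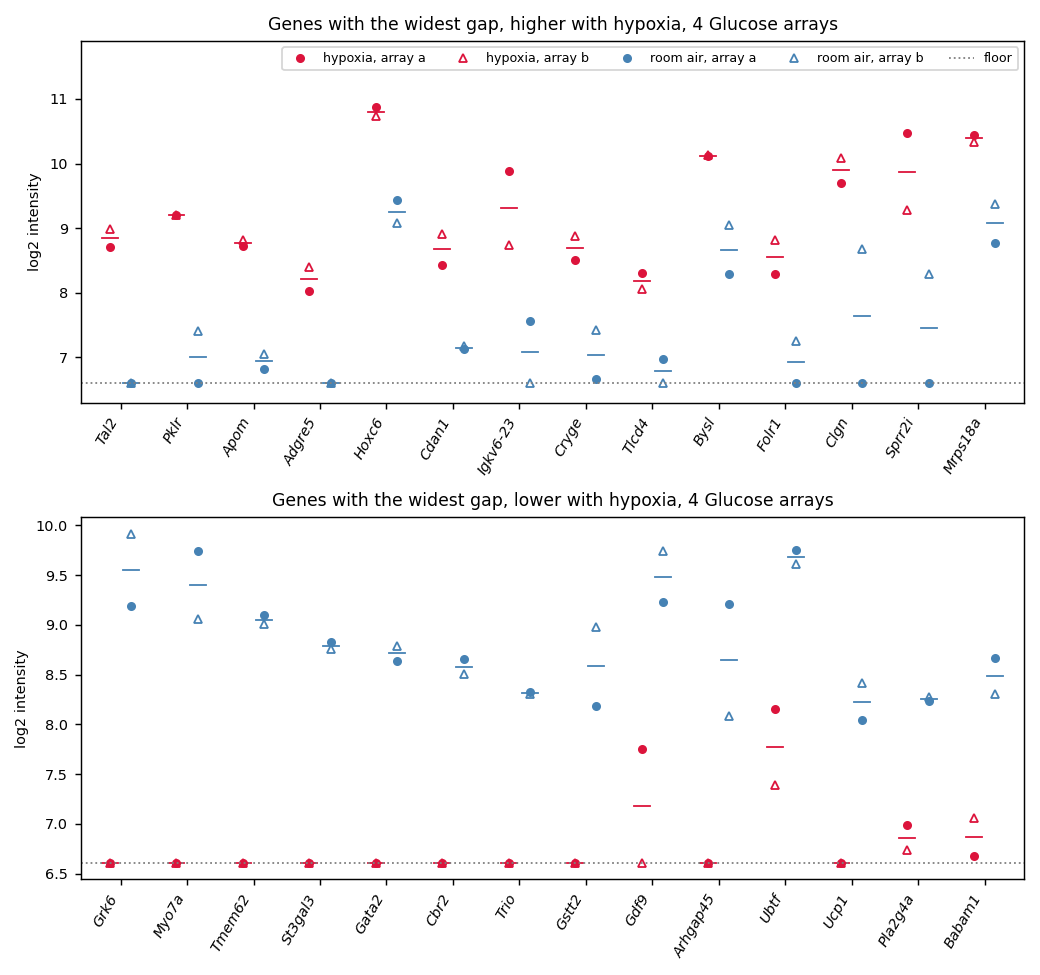
Log2 intensity of the 14 genes with the widest gap between the groups in each direction, higher with hypoxia in the upper panel and lower in the lower panel, with hypoxia arrays in red left of room-air arrays in blue, circles for the arrays a, triangles for the arrays b, short bars for group means and a dotted line for the floor of 6.61. The upper panel has Hoxc6 clear of the floor on all 4 arrays, and in the lower panel 10 of 14 genes lie at the floor on both hypoxia arrays.

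Genes of fatty acid and triglyceride synthesis that separated were all higher with hypoxia. All 18 genes of the list on the array were measured, 12 of them higher with hypoxia in the mean (48.9% of all probe sets were), and 0 passed in limma. Of the 18, 4 were 2-fold or more higher with no overlap (1.7% of all genes tested) and 0 lower (1.54%). For 8 of the 18 the hypoxia arrays both lay above the room-air arrays and for 0 both below, where 12.2% and 12.9% of all 5659 genes tested did so. The median difference was 0.32, with 0.32 in the pair a and 0.44 in the pair b, beside -0.01 over all genes. The list was chosen with earlier results of these data known and is not independent evidence of its direction.

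Acly, which makes the cytosolic acetyl-CoA from which fatty acids are built, had log2 levels of 12.62 and 12.95 on the hypoxia arrays, against 11.88 and 11.33 on the room-air arrays (1.18 ± 0.38, 2.27-fold). Scd2, a desaturase that makes monounsaturated fatty acids, had 13.02 and 12.68 on the hypoxia arrays, against 11.79 and 11.29 on the room-air arrays (1.31 ± 0.49). Elovl6, which elongates palmitate, had 8.71 and 8.80 on the hypoxia arrays, against 7.80 and 7.17 on the room-air arrays (1.27 ± 0.85). In all 3 genes the hypoxia arrays were above both room-air arrays, and the room-air array b was the lowest. The second probe sets of Scd2 and Elovl6 differed by 0.97 and 0.74.

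Fasn, the fatty acid synthase itself, had 13.37 and 13.94 on the hypoxia arrays, against 12.85 and 12.90 on the room-air arrays (0.78 ± 0.42, 1.72-fold). Srebf1, the transcription factor of the pathway, had 12.53 and 12.59 on the hypoxia arrays, against 12.04 and 11.83 on the room-air arrays (0.63 ± 0.36). Slc25a1, the mitochondrial citrate carrier, differed by 0.40 ± 0.32, and its other probe set by 0.43. These 3 genes separated by less than 2-fold. Thrsp, a lipogenic protein had 12.88 and 13.22 on the hypoxia arrays, against 10.96 and 12.77 on the room-air arrays (1.18 ± 0.63). The room-air array a was the low one. Also separated was Lpin1, a phosphatidate phosphatase (0.36 ± 0.36). Thrsp and Lpin1 are named after their values were seen.

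Members of the list that overlapped between the groups included Scd1, the main adipose desaturase, with 13.65 and 14.40 on the hypoxia arrays, against 13.36 and 14.80 on the room-air arrays (-0.06 ± 0.65). Gpd1, which makes the glycerol backbone of triglycerides, differed by 0.19 ± 0.46 and Dgat1, which adds the last acyl chain, by 0.13 ± 0.33. The lowest member was the elongase Elovl1, at -0.49 ± 0.95. Scd1 and Gpd1 were higher on the array b than on the array a in both groups.

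The promoter windows of Acly, Elovl6 and Thrsp, 3 of the 4 genes of this list that were 2-fold or more apart with no overlap, and of the glucose transporter Slc2a1, which met the same rule, are printed to let the motifs be read beside the values. Each runs from 250 bases before to 50 after the RefSeq gene start in build GRCm38.p6 and reads 5′ to 3′ on the strand of the gene. Of the 5 genes looked up, Scd2 was not matched. Capitals mark ACGTG, the core of the site bound by hypoxia-inducible factors, and CCAAT, the box bound by NF-Y, on either strand (CACGT and ATTGG).
Acly promoter, chr11:100527951-100528250, minus strand: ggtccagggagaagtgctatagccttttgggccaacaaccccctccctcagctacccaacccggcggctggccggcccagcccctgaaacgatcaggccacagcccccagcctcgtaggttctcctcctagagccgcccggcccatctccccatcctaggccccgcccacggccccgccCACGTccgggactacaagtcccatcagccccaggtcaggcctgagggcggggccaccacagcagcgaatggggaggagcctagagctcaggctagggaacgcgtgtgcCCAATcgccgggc
Elovl6 promoter, chr3:129532136-129532435, plus strand: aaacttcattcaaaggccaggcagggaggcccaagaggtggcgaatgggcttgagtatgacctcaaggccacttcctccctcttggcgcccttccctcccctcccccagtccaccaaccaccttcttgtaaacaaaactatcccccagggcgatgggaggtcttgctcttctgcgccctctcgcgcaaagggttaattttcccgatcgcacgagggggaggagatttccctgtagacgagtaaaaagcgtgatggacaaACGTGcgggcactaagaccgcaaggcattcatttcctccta
Thrsp promoter, chr7:97417501-97417800, minus strand: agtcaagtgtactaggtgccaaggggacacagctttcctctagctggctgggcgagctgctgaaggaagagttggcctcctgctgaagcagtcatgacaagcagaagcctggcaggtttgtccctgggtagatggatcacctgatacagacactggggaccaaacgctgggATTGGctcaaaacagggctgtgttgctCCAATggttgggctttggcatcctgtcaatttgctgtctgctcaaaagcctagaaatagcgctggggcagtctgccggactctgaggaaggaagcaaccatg
Slc2a1 promoter, chr4:119108495-119108794, plus strand: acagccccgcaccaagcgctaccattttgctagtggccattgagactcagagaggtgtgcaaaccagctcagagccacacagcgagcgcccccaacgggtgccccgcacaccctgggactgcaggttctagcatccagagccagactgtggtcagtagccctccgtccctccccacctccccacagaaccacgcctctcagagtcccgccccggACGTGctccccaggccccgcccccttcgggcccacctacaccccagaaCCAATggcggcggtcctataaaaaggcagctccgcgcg
The ACGTG core was found in the windows of Acly, Elovl6 and Slc2a1 and not in that of Thrsp, while the CCAAT box was found in Acly and Slc2a1, at 2 places in Thrsp and not in Elovl6. Over 32851 such windows, 19.6% hold ACGTG and 37.4% hold CCAAT. A match is a description of these letters and not a bound site.

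Cholesterol synthesis genes were higher with hypoxia in 11 of 12 measured cases, of 16 on the array, with 8 of the 12 separated upward and 0 downward (12.2% and 12.9% of all genes), 0 by 2-fold (1.7% and 1.54%) and 0 passing in limma. Their median difference was 0.29, with 0.34 in the pair a and 0.13 in the pair b. Cyp51, the sterol demethylase, had log2 levels of 9.30 and 9.21 on the hypoxia arrays, against 8.58 and 8.29 on the room-air arrays (0.82 ± 0.32). Msmo1, which oxidises the methyl groups after it, had 9.73 and 9.34 on the hypoxia arrays, against 8.43 and 9.01 on the room-air arrays (0.81 ± 0.37). Squalene epoxidase, Sqle, had 9.87 and 9.89 on the hypoxia arrays, against 9.37 and 9.19 on the room-air arrays (0.60 ± 0.62). Fdft1, the squalene synthase, differed by 0.52 ± 0.58, Fdps by 0.26 ± 0.38 and Ebp by 0.26 ± 0.32, whereas Mvk, mevalonate kinase, overlapped at -0.06 ± 0.41. The other separated members were Hmgcs1 (0.10 ± 0.41), an early enzyme, and Nsdhl (0.31 ± 0.34), a late one.

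**Figure D3:**
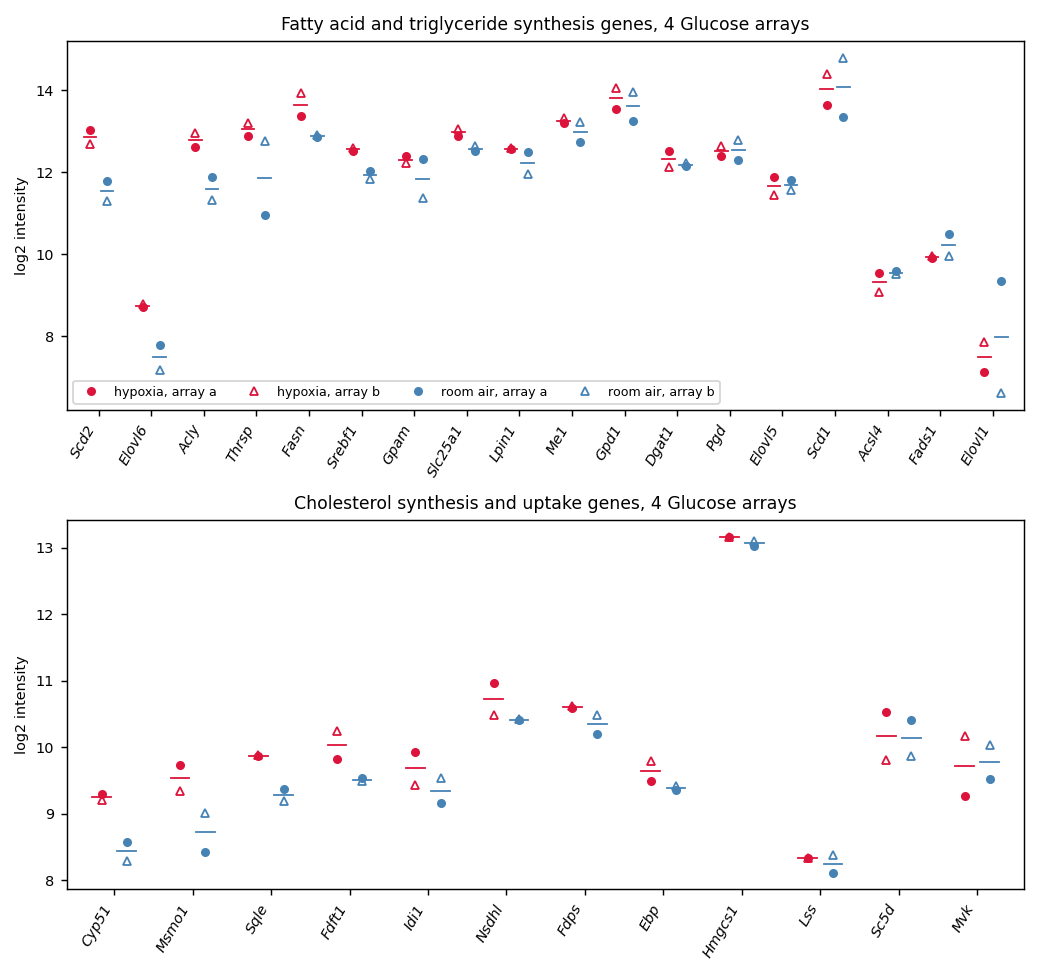
Log2 intensity of the 18 fatty acid and triglyceride synthesis genes (upper panel) and the 12 cholesterol synthesis and uptake genes (lower panel), ordered by their difference, with hypoxia arrays in red left of room-air arrays in blue, circles for the arrays a, triangles for the arrays b and short bars for group means. In 8 genes of each panel both hypoxia arrays lie above both room-air arrays.

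Genes of lipid storage and release did not separate in the same way. Of 13 lipolysis and lipid droplet genes measured, 5 were higher and 8 lower, and 0 passed in limma. Of the 13, 3 separated downward and 0 upward (12.9% and 12.2% of all genes). These 3 were Aqp7, the glycerol channel (-0.55 ± 0.37), Cd36, the fatty acid transporter (-0.39 ± 0.32), and Angptl4, an inhibitor of lipoprotein lipase (-0.55 ± 0.38). Aqp7 had 10.16 and 10.30 on the hypoxia arrays, against 10.86 and 10.69 on the room-air arrays. The list median was 0.11 in the pair a and -0.40 in the pair b, opposite in sign. Whether the difference between this list and fatty acid synthesis exceeds the spread was not tested.

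Lep, the satiety hormone leptin, varied far more between replicates than between groups. Its log2 levels were 11.63 and 13.23 on the hypoxia arrays, against 10.31 and 14.21 on the room-air arrays (0.17 ± 1.18), so that the room-air arrays a and b enclosed both hypoxia arrays. A second Lep probe set differed by -0.26. Adipoq had 13.92 and 14.56 on the hypoxia arrays, against 13.70 and 14.99 on the room-air arrays (-0.10 ± 0.55), in the same order of arrays. Leaving out 1 array in turn moved the Lep difference between -1.78 and 2.13 and that of Adipoq between -0.75 and 0.54.

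Of 12 adipokine and adipocyte genes, 4 separated upward and 0 downward (12.2% and 12.9% of all genes), and 0 passed in limma. Agt, the angiotensin precursor, had 10.22 and 10.26 on the hypoxia arrays, against 9.23 and 9.77 on the room-air arrays (0.73 ± 0.45). Pparg, the master regulator of adipocyte differentiation, had 12.09 and 12.07 on the hypoxia arrays, against 11.47 and 11.71 on the room-air arrays (0.49 ± 0.45). Its fellow regulators Cebpd and Cebpb differed by 0.30 ± 0.59 and 0.29 ± 0.34. The remaining 8 genes overlapped, among them Retn, resistin, at 0.06 ± 0.50 and Car3, an abundant carbonic anhydrase of fat, at -0.04 ± 0.66.

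Hypoxia response genes outside glycolysis showed no common shift. Of 26 measured, 16 were higher and 10 lower, 5 separated upward and 2 downward (12.2% and 12.9% of all genes), 0 passed in limma, and the median was 0.09. Slc2a1, the glucose transporter whose promoter is printed above, was the 1 gene of the list apart by 2-fold, with 7.95 and 8.85 on the hypoxia arrays, against 6.61 and 7.60 on the room-air arrays (1.29 ± 0.87, a lower bound). Its room-air array b lay close below the hypoxia array a. Hif1a, the oxygen-regulated subunit of the factor, had 13.04 and 12.69 on the hypoxia arrays, against 12.83 and 12.61 on the room-air arrays (0.14 ± 0.35), and Vegfa had 9.86 and 8.82 on the hypoxia arrays, against 9.74 and 9.45 on the room-air arrays (-0.26 ± 0.56). Both genes overlapped between the groups.

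Among the other members, Bhlhe40, a repressor shared by the hypoxia and clock lists, had 11.08 and 10.13 on the hypoxia arrays, against 9.54 and 9.98 on the room-air arrays (0.84 ± 0.43). Ero1a, the oxidase of the endoplasmic reticulum, differed by 0.48 ± 0.35 and P4ha1, a collagen prolyl hydroxylase, by 0.43 ± 0.37. Haem oxygenase, Hmox1, was lower, with 12.14 and 12.05 on the hypoxia arrays, against 12.48 and 12.67 on the room-air arrays (-0.48 ± 0.30). Bnip3, a mitophagy protein and known target of hypoxia-inducible factors, differed by -0.17 ± 0.33 and also lay lower on both hypoxia arrays. Adm, another such target, overlapped at 0.05 ± 0.65.

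Genes of insulin signalling and glucose uptake were higher in 12 of 15 cases, with 4 separated upward and 1 downward (12.2% and 12.9% of all genes), and 0 passing in limma. Pik3r1, the regulatory subunit of phosphoinositide 3-kinase, had 10.02 and 10.11 on the hypoxia arrays, against 9.50 and 7.89 on the room-air arrays (1.37 ± 0.57), a difference that lay mostly in the room-air array b. Hk2, which traps glucose in the cell, had 12.34 and 11.48 on the hypoxia arrays, against 11.34 and 10.89 on the room-air arrays (0.79 ± 0.42). Grb10, an adaptor that restrains the insulin receptor, was the separated member on the lower side (-0.56 ± 0.37). Slc2a4, the insulin-regulated glucose transporter of fat, overlapped at 0.43 ± 0.41. The list median of 0.40 was 0.07 in the pair a and 0.44 in the pair b, and 0.09 with the floor at the percentile 40. In glycolysis, 2 of 15 genes separated upward and 0 downward (12.2% and 12.9% of all genes), and 0 passed in limma. The 2 were Hk2 and the phosphofructokinase Pfkp (0.66 ± 0.44).

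The median of the class II antigen presentation genes was lower with hypoxia in both pairs of arrays. All 10 class II genes on the array were tested: 8 were lower and 0 higher in the mean, 5 separated downward and 0 upward (12.9% and 12.2% of all genes), 3 of them by 2-fold (1.54% of all genes), and 0 passed in limma. The other 2, H2-DMb2 and H2-Ob, were at the floor on all 4 arrays. H2-Ab1, a class II beta chain, had log2 levels of 8.11 and 6.61 on the hypoxia arrays, against 8.75 and 10.24 on the room-air arrays (-2.13 ± 0.64, a lower bound in size). H2-Aa, its alpha partner, had 9.99 and 11.36 on the hypoxia arrays, against 11.54 and 12.33 on the room-air arrays (-1.26 ± 0.50). H2-DMa, which helps load peptides, was at the floor on both hypoxia arrays, had 7.56 and 8.46 on the room-air arrays and was at least 2.64-fold lower.

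H2-Eb1, another class II beta chain, had 10.15 and 10.69 on the hypoxia arrays, against 11.06 and 11.48 on the room-air arrays (-0.85 ± 0.37), and Cd74, the invariant chain, had 12.57 and 12.48 on the hypoxia arrays, against 12.95 and 13.12 on the room-air arrays (-0.51 ± 0.33). The list median was -0.39, with -0.48 in the pair a and -0.72 in the pair b, beside 0.00 in each pair over all genes. It ranged from -0.83 to -0.23 when 1 of the 8 adipose arrays was left out in turn. The summed intensity of 18 macrophage genes, cells that carry class II molecules, was 41924 and 51692 on the hypoxia arrays, against 41031 and 74436 on the room-air arrays, and overlapped. The part of immune cell content in the class II difference was not tested.

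T cell genes lay near the floor. Of 8 measured, 3 separated downward and 0 upward with hypoxia, where 12.9% and 12.2% of all genes did so. The chemokine Ccl5 and the actin regulator Coro1a were at the floor on both hypoxia arrays. Ccl5 was at least 2.04-fold lower and Coro1a at least 1.94-fold. The interleukin 7 receptor Il7r was the other separated member (-0.62 ± 0.54). Cd8b1, a chain of the CD8 coreceptor, was at the floor on all 4 arrays. The summed intensity of the 8 genes was 2251 and 1325 on the hypoxia arrays, against 2684 and 2196 on the room-air arrays. The list median of -0.79 vanished with the floor at the percentile 40. Interferon response genes had 4 of 18 separated downward and 1 upward (12.9% and 12.2% of all genes). The guanylate binding proteins Gbp3 (-0.47 ± 0.38) and Gbp2 (-0.35 ± 0.31) were among the lower, and Ifit3 was the higher (0.30 ± 0.35). In limma 0 genes of either list passed.

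B cell genes were more often higher, with 6 higher and 2 lower of 10, 4 separated upward and 1 downward (12.2% and 12.9% of all genes), a median of 0.41 and 0 passing in limma. Around the mean, the list stood at 0.20 and -0.02 on the hypoxia arrays, against -0.24 and -0.15 on the room-air arrays. The median was 0.15 without the hypoxia array a, 0.12 with no filter on low values, 0.25 with the mean over the probe sets of a gene and 0.0098 with the floor at the percentile 40. Ms4a1, the surface protein CD20, had 9.62 and 10.46 on the hypoxia arrays, against 8.82 and 8.70 on the room-air arrays (1.28 ± 0.38), and its other probe set differed by 0.09. Igkv6-23, an immunoglobulin light chain segment whose probe set may read related segments, had 9.89 and 8.74 on the hypoxia arrays, against 7.57 and 6.61 on the room-air arrays (2.22 ± 0.50, a lower bound). Cd79b, a chain of the B cell receptor, was lower, with 6.61 and 7.76 on the hypoxia arrays, against 8.54 and 8.28 on the room-air arrays (-1.23 ± 0.44). The IgE receptor Fcer2a (1.03 ± 0.60) and the kinase Blk (0.79 ± 0.46) were the other separated members. Cd79a, the partner of Cd79b, was at the floor on both hypoxia arrays and on the room-air array a.

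Inflammation genes separated in 8 of 18 cases, 4 upward and 4 downward (12.2% and 12.9% of all genes), with 0 passing in limma. Ccl7, a chemokine for monocytes, had 9.0 and 9.28 on the hypoxia arrays, against 6.91 and 8.76 on the room-air arrays (1.30 ± 0.94), and Ccl2, the best known such chemokine, had 10.08 and 10.03 on the hypoxia arrays, against 7.82 on the room-air array a, with the room-air array b just below the hypoxia arrays (1.14). Both differences lay mostly in the room-air array a, the array poorest in muscle RNA. Ccl3 was closer between replicates, with 8.43 and 8.31 on the hypoxia arrays, against 7.70 and 7.79 on the room-air arrays (0.63 ± 0.33). Il1rn, the natural antagonist of interleukin 1, was lower, with 7.69 and 7.14 on the hypoxia arrays, against 8.42 and 8.77 on the room-air arrays (-1.18 ± 0.38). Of 18 macrophage genes 5 were higher and 13 lower in the mean, and 1 separated upward and 1 downward (12.2% and 12.9% of all genes). These were the Fc receptor Fcgr1 (0.44 ± 0.31) and the elastase Mmp12 (-0.51 ± 0.56). The macrophage median was -0.19, with -0.02 in the pair a and -0.55 in the pair b. Ccl2 is named here after its values were seen.

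Clock genes lay on both sides. Of 15 measured, 4 separated upward and 4 downward (12.2% and 12.9% of all genes), 3 of the 8 by 2-fold, 1 upward and 2 downward (1.7% and 1.54%), and 0 passed in limma. Arntl, the activator also called Bmal1, had log2 levels of 9.29 and 8.87 on the hypoxia arrays, against 8.37 and 6.61 on the room-air arrays (1.59 ± 0.57, a lower bound). Nr1d2, a repressor of Arntl, had 9.15 and 9.30 on the hypoxia arrays, against 10.14 and 10.59 on the room-air arrays (-1.14 ± 0.34). Dbp, an output factor driven by Arntl, had 7.76 and 8.10 on the hypoxia arrays, against 8.95 and 9.33 on the room-air arrays (-1.21 ± 0.91). The replicates of Nr1d2 and Dbp lay closer to each other than to the other group.

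Per1, a clock repressor, differed by -0.56 ± 0.52 and Tef, a relative of Dbp, by -0.65 ± 0.71, both separated downward. Cry1 (0.32 ± 0.32) and Nfil3 (0.32 ± 0.36), known to peak away from Dbp, were separated upward with Bhlhe40. Per2, Per3 and Nr1d1 overlapped, at 0.16 ± 0.90, -0.02 ± 0.33 and -0.08 ± 0.48. The hour at which the tissue was taken is not given, and its part in these differences was not tested. Among 17 glucocorticoid response genes 2 separated upward and 4 downward (12.2% and 12.9% of all genes), with Pdk4, which spares glucose, at -0.90 ± 0.60.

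**Figure D4:**
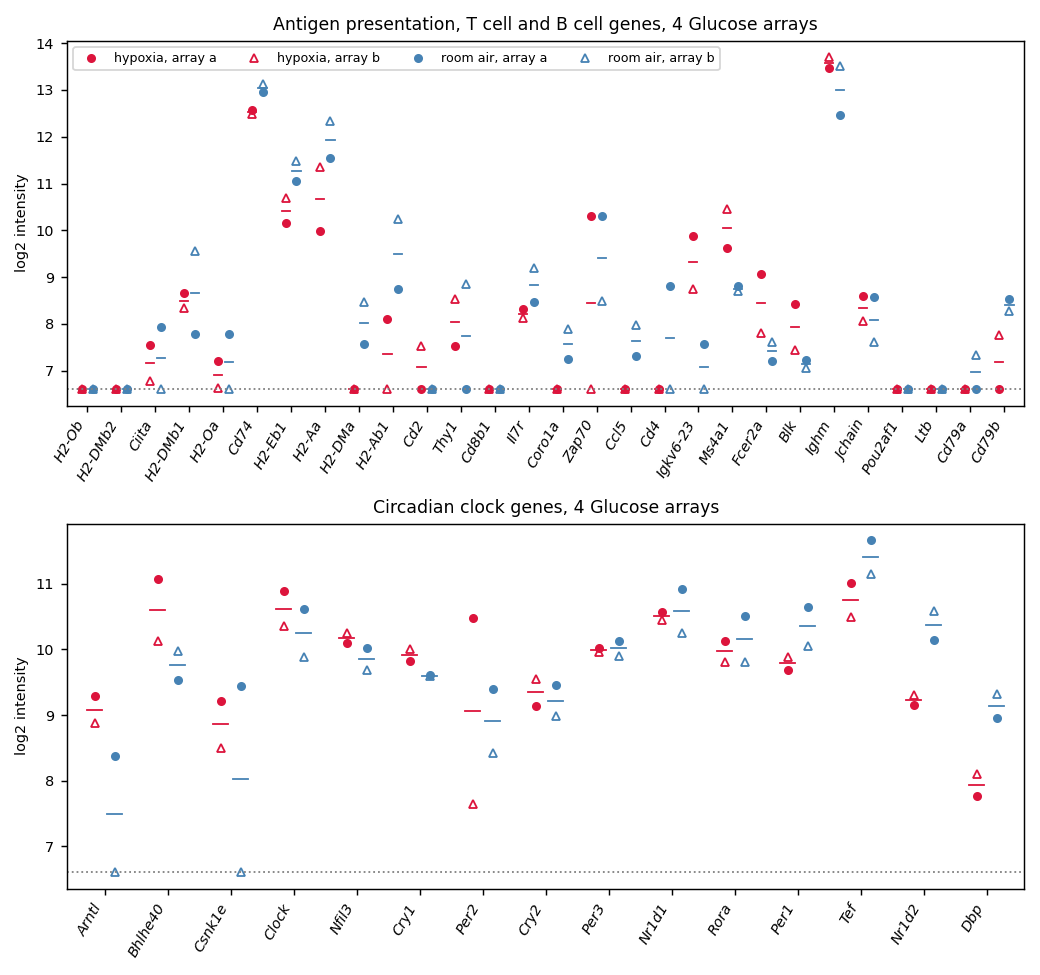
Log2 intensity of the antigen presentation, T cell and B cell genes (upper panel, in that order) and of 15 circadian clock genes (lower panel), with hypoxia arrays in red left of room-air arrays in blue, circles for the arrays a, triangles for the arrays b, short bars for group means and a dotted line for the floor. H2-Aa, H2-Eb1, H2-Ab1, Cd74, Nr1d2 and Dbp have both hypoxia arrays below both room-air arrays, and Ms4a1 and Arntl have them above.

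Skeletal muscle fibre genes had the largest median of the 31 lists, 0.98, and yet 0 of the 30 measured separated. Of all genes 12.2% separated upward and 12.9% downward. The median was 1.91 in the pair a and -0.02 in the pair b. Ckm, the creatine kinase of muscle, had 11.02 and 13.20 on the hypoxia arrays, against 6.61 and 13.29 on the room-air arrays (2.16 ± 1.86), and Myh4, a fast myosin heavy chain, had 13.75 and 14.08 on the hypoxia arrays, against 10.41 and 14.67 on the room-air arrays (1.38 ± 1.16). The room-air array a was the low one in both genes. With 1 of the 8 adipose arrays left out in turn the median ranged from -0.68 to 2.76. Around the mean of the 4 arrays, the median of the muscle list was 0.0 and 1.24 on the hypoxia arrays and -2.40 and 1.24 on the room-air arrays. That of fatty acid and triglyceride synthesis was 0.14 and 0.25 on the hypoxia arrays and -0.25 and -0.14 on the room-air arrays, and that of the class II genes -0.10 and -0.28 on the hypoxia arrays and 0.23 and 0.49 on the room-air arrays. The part of muscle content in these lists was not tested.

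Energy metabolism lists had medians just below 0. Of 50 respiratory chain genes, 32 were lower and 18 higher, and 2 separated upward and 4 downward (12.2% and 12.9% of all genes). Their median was -0.04, with 0.17 in the pair a and -0.14 in the pair b. Of 32 genes of the citrate cycle and fatty acid oxidation, 23 were lower and 9 higher (median -0.10). Of these 32, 2 separated upward and 4 downward, again beside 12.2% and 12.9% of all genes. The widest was Slc25a20, the carnitine carrier, with 11.43 and 11.35 on the hypoxia arrays, against 12.05 and 11.92 on the room-air arrays (-0.60 ± 0.81). Etfa, which passes electrons from fatty acid oxidation, differed by -0.40 ± 0.66 and Cpt2, which brings fatty acids into the matrix, by 0.19 ± 0.40. In limma 0 genes of both lists passed.

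**Figure D5:**
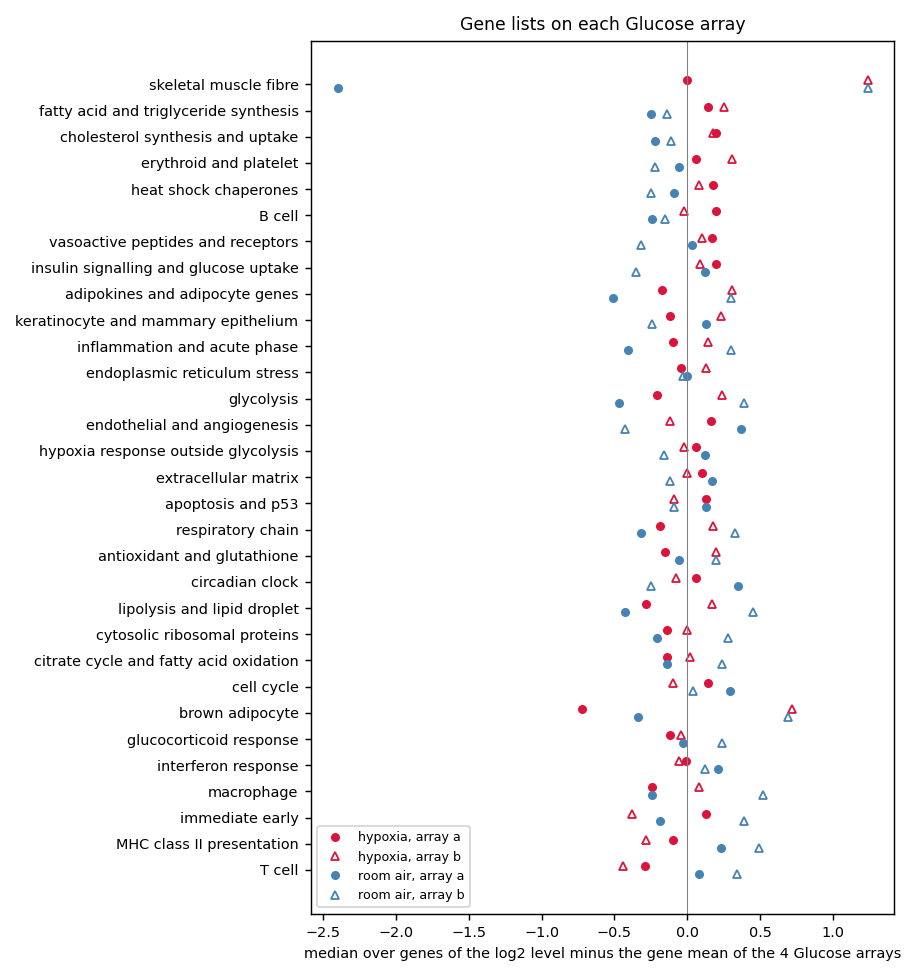
Median over the genes of each of 31 lists of the log2 level minus that gene's mean over the 4 Glucose arrays, 1 point per array, with hypoxia arrays in red above room-air arrays in blue, circles for the arrays a and triangles for the arrays b. In 6 lists (fatty acid synthesis, cholesterol synthesis, erythroid, heat shock, B cell and vasoactive) both hypoxia arrays lie right of both room-air arrays, in 4 (class II, T cell, interferon and glucocorticoid) they lie left and in the other 21 the groups overlap, while the muscle fibre list is spread by the room-air array a at -2.40.

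The 4 Con arrays hold the same exposure contrast with no shared arrays, and the difference between the hypoxia effects of Glucose and Con was tested in the same fit. By limma 0 of the 7453 (0%) had an adjusted p under 0.05, the smallest adjusted p was 0.999, and 246 lay under 0.05 unadjusted. Within Con, 161 probe sets were 2-fold or more higher with no overlap (2.16%) and 206 lower (2.76%). Of the 131 higher within Glucose, 2 were also among the higher within Con and 16 among the lower. Of the 124 lower within Glucose, 3 were also among the lower within Con and 9 among the higher. Over all probe sets the differences within Glucose and within Con correlated at r = -0.24, a description over features that share their arrays.

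The genes with the smallest unadjusted p for that difference were Hoxc6 (1.55 within Glucose and -0.91 within Con, a difference of 2.45 ± 0.48), Bysl (1.46 and -1.25), Clgn (2.25 and -1.55), Sac3d1 (1.07 and -1.38, with another probe set at -0.40 within Glucose) and Atn1 (1.45 and -0.97) on one side. On the other stood Grk6 (-2.94 within Glucose and 2.11 within Con), Gstt2 (-1.97 and 1.08), the splicing factor Srsf4 (-1.35 and 0.95), Mcrs1 (-0.89 and 1.09) and Nnat, an imprinted gene of adipocytes (-0.33 and 1.85). Adjusted p in limma was 0.999 for each. Nnat differed little within Glucose, with 12.85 and 13.18 on the hypoxia arrays, against 13.17 and 13.53 on the room-air arrays.

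Of the genes described above, Acly differed by 1.18 within Glucose and -0.83 within Con (difference 2.01 ± 0.53, adjusted p = 0.999 in limma), Elovl6 by 1.27 and -1.41, Hk2 by 0.79 and -1.05 and Bhlhe40 by 0.84 and -1.47. Fasn and Scd2 differed by 0.78 and 1.31 within Glucose and by 0.20 and -0.18 within Con. The class II genes had a median of -0.39 within Glucose and 0.09 within Con, and Nr1d2 differed by -1.14 and 0.18. Levels of the class II genes were unlike in the 2 sets: their summed intensity was 9560 to 19619 on the Glucose arrays and 56000 to 72587 on the Con arrays. Sprr2i differed by 2.42 within Glucose and 2.45 within Con, both lower bounds. It was at the floor on the Glucose room-air array a and on both Con room-air arrays, so the likeness of the 2 sizes depends on the floor. Whether any list differed between Glucose and Con was not tested.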

How the data were processed

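RNA of subcutaneous adipose tissue was measured on 8 short-oligonucleotide arrays, 1 sample each. The files deposited by the authors give linear intensity values, 1 for each of 12488 probe sets, whose trimmed means lie near 800 on these arrays. How probes were summarised is not stated here. The 66 platform controls were left out. Of the remaining 12422, the annotation supplied gives 1 symbol to 10833, several to 396 and none to 1193. The last 2 kinds were tested and not named. Values below 97.7, the percentile 20 of all positive values of the 20 arrays of the series, were set to it before log2. Values at or below 0 are thus at the floor. Probe sets with a mean over the 8 adipose arrays above the 40th percentile were kept (7453). Genes near the floor on the Glucose arrays could thus be kept through their Con values.

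Groups were taken from the titles. One limma 3.58.1 fit (R 4.3.3, lmFit and eBayes) of 4 group means on the 8 arrays left 4 residual degrees of freedom and used Benjamini-Hochberg adjustment over all probe sets at 0.05. It was tested on simulated data. A gene was represented by its brightest probe set (5659 genes). A fold against a group wholly at the floor is written as at least. Separated means that all arrays of one group lay beyond all of the other. Named are the 14 genes a side with the widest gap, up to 5 a side wholly at the floor in one group, up to 6 members of each list with the largest gap and members of opposite sign, the 5 a side with the smallest p for the difference from Con, and Lep, Adipoq, Vegfa, Slc2a1 and Hif1a. Other list members given for comparison were chosen after their values were seen. The members and the 31 lists were chosen with earlier results of these data known. Alternatives were quantile normalization, other floors, an offset in place of the floor, no filter, the Glucose arrays alone, the replicate letter or the s number as a block, an intensity trend, the mean over probe sets and leaving out each array. The number of arrays limits the precision.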

Additional observations from a re-analysis of the deposited data

Results flagged for a closer look

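The fatty acid and triglyceride synthesis genes lay in opposite directions in the Glucose and the Con arrays. Their median difference of hypoxia minus room air was 0.32 within Glucose and -0.26 within Con. On the Glucose arrays the median level around the mean was 0.14 and 0.25 with hypoxia and -0.25 and -0.14 with room air, and on the Con arrays it was -0.25 and -0.13 with hypoxia and 0.22 and 0.05 with room air. Both hypoxia arrays lay above both room-air arrays within Glucose and below them within Con. The difference between the 2 for the list as a whole was not tested.

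Among the 4969 probe sets left out because their mean was low, 36 were 2-fold or more higher on the Glucose hypoxia arrays than on the room-air arrays with no overlap (0.724%), and 19 were lower (0.382%). These probe sets enter no comparison above.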

How the results depend on the processing

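With 2 arrays a side the precision is limited by their number, and for many probe sets by the floor, where 33.7% to 35.6% of the values of an array lie. Without the filter on low values, 4 of 12422 probe sets passed in limma within Glucose: Kcnj9 (-1.24, adjusted p = 3.5e-05), Strada (-1.06, adjusted p = 0.00743), Bcar1 (-1.54, adjusted p = 0.00757) and Tsn (0.21, adjusted p = 0.0242). Each had 1 Glucose group wholly at the floor and so with no spread there. Kcnj9, Bcar1 and Tsn were also at the floor on all Con arrays, and Strada on both Con hypoxia arrays. The fit takes its spread from these groups too. For the difference from Con 3 passed (Kcnj9, Bcar1 and Gli3). Under every other alternative 0 passed, with 133 to 340 at an unadjusted p under 0.05. With the replicate letter as a block, 0 passed, with 181 at an unadjusted p under 0.05 in the fit of 8 arrays and 311 in that of 4. No label says that a letter marks a shared animal or day, and on the Glucose arrays it goes with the s number, which as a block in the fit of 8 arrays gave 0 with 175 unadjusted. Over probe sets, the difference of array a minus array b with hypoxia correlated with that with room air at r = 0.41. The probe sets are not independent replicates, and only 2 pairs of arrays stand behind this value. The counts 2-fold or more apart with no overlap were 52 higher and 41 lower with the floor at the percentile 40, and 83 and 75 with the offset. Leaving out 1 Glucose array in turn they ranged from 290 to 495 higher and from 311 to 352 lower. Such counts rest on a group of 1 array and are not comparable with those of 2 arrays. Leaving out a Con array cannot change them, and they stayed at 131 and 124. Of the 3120 recomputed values of named genes 6 turned to the opposite sign, and a difference that fell to 0 was not counted as turned. This is no measure of stability. Most named genes were chosen because their groups did not overlap, and leaving out 1 array cannot turn the sign of such a difference. Several settings, such as leaving out a Con array or adding a block, cannot change a difference within Glucose. With the floor at the percentile 40, a log2 level of 8.17, Ccl5 and Coro1a lay under it on every Glucose array. Their differences vanished there. Of 589 recomputed list medians 70 moved by more than the spread between replicates. The 6 gene values that turned did so with 1 array left out: Lep (-1.78 to 2.13), Adipoq (-0.75 to 0.54), Vegfa (-0.77 to 0.26) and Hif1a (-0.033 to 0.32). Over the same settings the medians ranged from 0.31 to 0.49 for fatty acid and triglyceride synthesis, from 0.26 to 0.37 for cholesterol synthesis, from -0.83 to -0.23 for class II genes and from -0.68 to 2.76 for muscle fibre genes.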

Other observations

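Chaperones and stress genes held separated members on both sides. Of 16 heat shock genes 5 were separated upward and 1 downward on the hypoxia arrays (12.2% and 12.9% of all genes). Hspb8, a small heat shock protein, had log2 levels of 12.49 and 12.59 on the hypoxia arrays, against 11.87 and 11.72 on the room-air arrays (0.75 ± 0.41), and Hsph1, a large cytosolic chaperone, had 11.37 and 11.28 on the hypoxia arrays, against 10.78 and 10.39 on the room-air arrays (0.74 ± 0.48). Hspa4 differed by 0.87 ± 0.34 on its brightest probe set, while 3 of its 4 other probe sets were negative. Of 19 genes of endoplasmic reticulum stress, Ddit3, a factor of the terminal stress response, differed by 1.07 ± 0.62, and P4hb, a disulfide isomerase, by -2.43 ± 0.92 on 1 probe set and -0.05 on the other. The antioxidant genes Gpx4, which reduces lipid peroxides, and Sod2, the mitochondrial superoxide dismutase, differed by -0.51 ± 0.62 and 0.53 ± 0.69. In limma 0 genes of these lists passed at the adjusted threshold.

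Of 5 erythroid and platelet genes, 3 were separated upward and 0 downward (12.2% and 12.9% of all genes). Their median was 0.27, with 0.12 in the pair a and 0.44 in the pair b. Among the separated were Alas2, the first enzyme of haem synthesis in red cells (0.56 ± 0.42), and the beta globin Hbb-b2 (0.28 ± 0.33). The median level of this list around the mean was 0.06 and 0.31 on the hypoxia arrays, against -0.06 and -0.22 on the room-air arrays. Cldn5, the tight junction protein of endothelium, had 10.32 and 10.52 on the hypoxia arrays, against 11.86 and 11.40 on the room-air arrays (-1.21 ± 0.34), while Emcn, another endothelial protein, had 10.99 and 10.81 on the hypoxia arrays, against 10.45 and 10.15 on the room-air arrays (0.60 ± 0.31). Krt10, a keratin of the upper epidermis, had 6.86 and 7.22 on the hypoxia arrays, against 10.23 and 8.37 on the room-air arrays (-2.26 ± 0.58), on the other side from Sprr2i. Of 15 cell cycle genes 2 were separated upward and 4 downward (12.2% and 12.9% of all genes). Mcm7, a part of the replicative helicase, stood at -1.37 ± 0.51 and Ezh2, a histone methyltransferase, at -0.76 ± 0.32. Of 34 extracellular matrix genes 7 were separated upward and 3 downward (12.2% and 12.9% of all genes). Col4a2, a basement membrane collagen, stood at 0.35 ± 0.32 and Timp3, an inhibitor of metalloproteinases, at -0.48 ± 0.42. Ptger3, a prostaglandin E receptor that restrains lipolysis, had 10.54 and 10.42 on the hypoxia arrays, against 9.90 and 9.85 on the room-air arrays (0.60 ± 0.33).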
